A study of Mus musculus with 8 samples.

Results

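The comparison described here sets 2 libraries of Peyer's patch lymphoid tissue inducer (LTi) cells labelled as Tcf7 knockout against 2 from wild-type mice, 4 of the 8 libraries of the study. Genes were taken where at least 2 of these 4 libraries reached 1 RPKM (reads scaled to transcript length and sequencing depth), which kept 8210 of the 27179 genes in the deposited table. The remaining 4 libraries come from LTi cells of the small intestinal lamina propria, with 2 libraries for each genotype, and entered here through the estimate of the spread and through the test of whether the genotype difference was the same in both tissues. All mice were C57BL/6. The wild-type group is Tcf7+/+, and the other group is Tcf7fl/fl with a Cre transgene. The labels do not say whether the Tcf7+/+ mice carried Cre, nor whether the 2 libraries of a group came from separate animals. The 2 lamina propria libraries labelled knockout differed in transcripts linked to sex. Xist was at 60.3 and 0.0866 RPKM there and Ddx3y at 0.312 and 67.5, so these 2 did not come from the same animal. For the other groups this is not known. The p-values measure a spread between libraries of a group, pooled over all 8 libraries, which in those groups may be technical.

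LTi cells are innate lymphoid cells that start the formation of Peyer's patches and lymph nodes through lymphotoxin. In the gut they belong with the group 3 innate lymphoid cells, which are known for making IL-22 and IL-17 in response to IL-23 and IL-1. Tcf7 encodes TCF-1, a DNA-binding factor of the TCF/LEF family that partners with beta-catenin in the Wnt pathway and that is known from T cells and innate lymphoid cells as a regulator of their development.

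The sorted cells lacked lineage markers, KLRG1, NK1.1 and NKp46, and carried CD127 and CCR6. RNA of the defining LTi genes was high in all 4 libraries. Ccr6 was at 320 RPKM or more, Il7r (CD127) at 251 or more and Ltb at 1839 or more. Ncr1, which encodes NKp46, was listed at 0 in all 4 libraries and Klrg1 was at most 0.0365 RPKM, whereas Klrb1c (NK1.1) was at 32.8 and 0.12 in the wild-type libraries and at 0.187 and 8.42 in those labelled knockout. The libraries differed in ways that bear on every result below. The wild-type libraries had 6411 and 6365 genes at 1 RPKM or more, and those labelled knockout had 8103 and 8039. The 2 wild-type libraries correlated with each other (Pearson's r = 0.484 over the 8210 genes, which are not independent replicates) no better than the first of them did with the first library labelled knockout (0.517), and the pair labelled knockout reached 0.62. In 25.5% of the genes kept, 1 wild-type library was at 10 RPKM or more while the other was under 1, against 12.2% between the libraries labelled knockout. Transcripts linked to sex also differed, since Xist was at 9.6 and 9.22 RPKM in the wild-type libraries against 0.326 and 1.84. The Y-linked genes went different ways: Ddx3y was at 0.779 and 0.223 against 8.93 and 1.36 RPKM, Kdm5d at 0.00944 and 18.3 against 0.019 and 0.0182, and Eif2s3y, whose groups overlap, at 0.116 and 5.25 against 40.7 and 0.141. These genes were chosen with their values known, and the part of these differences in the results was not tested.

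Tcf7 itself (chromosome 11, 52246527 to 52283383 in GRCm38.p6) was not lower in the libraries labelled knockout. It was at 243 and 85.4 RPKM in the wild-type libraries and at 355 and 337 in the libraries labelled knockout. Both of the latter lay above both of the former, with a log2 fold change of 1.26 ± 0.47 (SE), but the difference did not pass (limma, Benjamini-Hochberg adjusted p = 0.27). The estimate was 0.68 after scaling by the median of ratios, 2.01 without the first wild-type library and 0.51 without the second, and over 20 alternatives the adjusted p lay between 0.0552 and 0.808. The labels do not say which exons are flanked by loxP sites, and a value summed over the whole gene also counts transcripts that lack those exons, so these values do not show whether the deletion took place. The groups are therefore called by their labels throughout.

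Among the genes that passed were the cytokine genes Il17a and Il17f, which lie next to each other on chromosome 1 (20730905 to 20734496 and 20777146 to 20785274 in GRCm38.p6). Their promoters, the 250 bases before a transcript start in RefSeq on GRCm38.p6, are shown because both genes were higher together and TCF/LEF factors are the subject of the comparison. Capitals mark AGGTCA, a half-site of nuclear receptors, and CTTTGAA or CTTTGAT, the core bound by TCF/LEF factors, each searched on both strands. The first sequence is chr1:20730655-20730904 on the plus strand and the second is chr1:20784271-20784520 on the minus strand, both written 5′ to 3′ towards the start. The transcript start used is 20730905 for Il17a, the outer end of the gene, and 20784270 for Il17f, which lies 1004 bases inside the outer end of the gene span given above.
Il17a: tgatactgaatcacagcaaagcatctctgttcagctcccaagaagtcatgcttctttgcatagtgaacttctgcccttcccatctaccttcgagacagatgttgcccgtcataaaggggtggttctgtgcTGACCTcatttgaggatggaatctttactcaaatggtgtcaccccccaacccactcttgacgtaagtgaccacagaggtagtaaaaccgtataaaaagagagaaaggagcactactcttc
Il17f: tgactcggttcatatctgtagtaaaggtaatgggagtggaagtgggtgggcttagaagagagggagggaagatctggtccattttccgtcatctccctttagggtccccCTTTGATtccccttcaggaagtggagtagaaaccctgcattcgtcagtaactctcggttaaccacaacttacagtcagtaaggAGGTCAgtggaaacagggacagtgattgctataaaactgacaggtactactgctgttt
The Il17a promoter held AGGTCA on the opposite strand, printed as TGACCT, 120 bases before that start, and no match to the TCF/LEF letters in this window. The Il17f promoter held CTTTGAT 141 bases and AGGTCA 58 bases before the start at 20784270. The motifs do not overlap each other. Of 32851 promoters of this length, 7.48% held a TCF/LEF match and 14% held AGGTCA. Among the 7882 promoters of genes kept, the shares were 5.21% and 10.9%. These matches are a description of the letters, not of binding.

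Il17a was nearly silent in the wild-type libraries, at 0.81 and 1.08 RPKM, and was at 59.8 and 118 in the libraries labelled knockout. The groups were far apart and did not overlap. The log2 fold change was 5.45 ± 0.76 (adjusted p = 0.026), here and below on the scale of log2(RPKM + 1) and with the SE of the limma fit. Il17f, the closest relative of Il17a and its partner in the IL-17A/F heterodimer, was at 9.19 and 2.92 RPKM in the wild-type libraries and at 112 and 73.1 in those labelled knockout. This is a log2 fold change of 3.86 ± 0.55 (adjusted p = 0.026). The call of Il17a was lost without any 1 of the 8 libraries, with an adjusted p between 0.0564 and 0.122. Il17f still passed without the first or without the second wild-type Peyer's patch library, and its call was lost without any 1 of the other 6, with an adjusted p of up to 0.126. In the lamina propria, Il17a was at 15.2 and 55.6 RPKM in the wild-type libraries and at 437 and 347 in those labelled knockout, and Il17f at 455 and 296 against 1159 and 1572. Those differences did not pass (adjusted p = 0.697 for Il17a and 0.874 for Il17f). The genotype difference was not shown to differ between the tissues for either gene, with interaction estimates (lamina propria minus Peyer's patch) of -1.77 ± 1.07 (adjusted p = 0.71) for Il17a and -1.98 ± 0.77 (adjusted p = 0.479) for Il17f.

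The other effector cytokines kept did not pass. Il22, which acts on epithelial cells and is the most abundant of these transcripts, was at 865 and 585 RPKM in the wild-type libraries and at 615 and 460 in those labelled knockout. These groups overlap, and the log2 fold change was -0.42 ± 0.23 (adjusted p = 0.494). Csf2, which encodes GM-CSF, was at 21.5 and 7.76 against 29.6 and 4.98 RPKM. Of 15 effector cytokines listed, 6 were kept, and Il17a and Il17f were the 2 that passed, where 1.74% of all genes tested did.

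**Figure D1:**
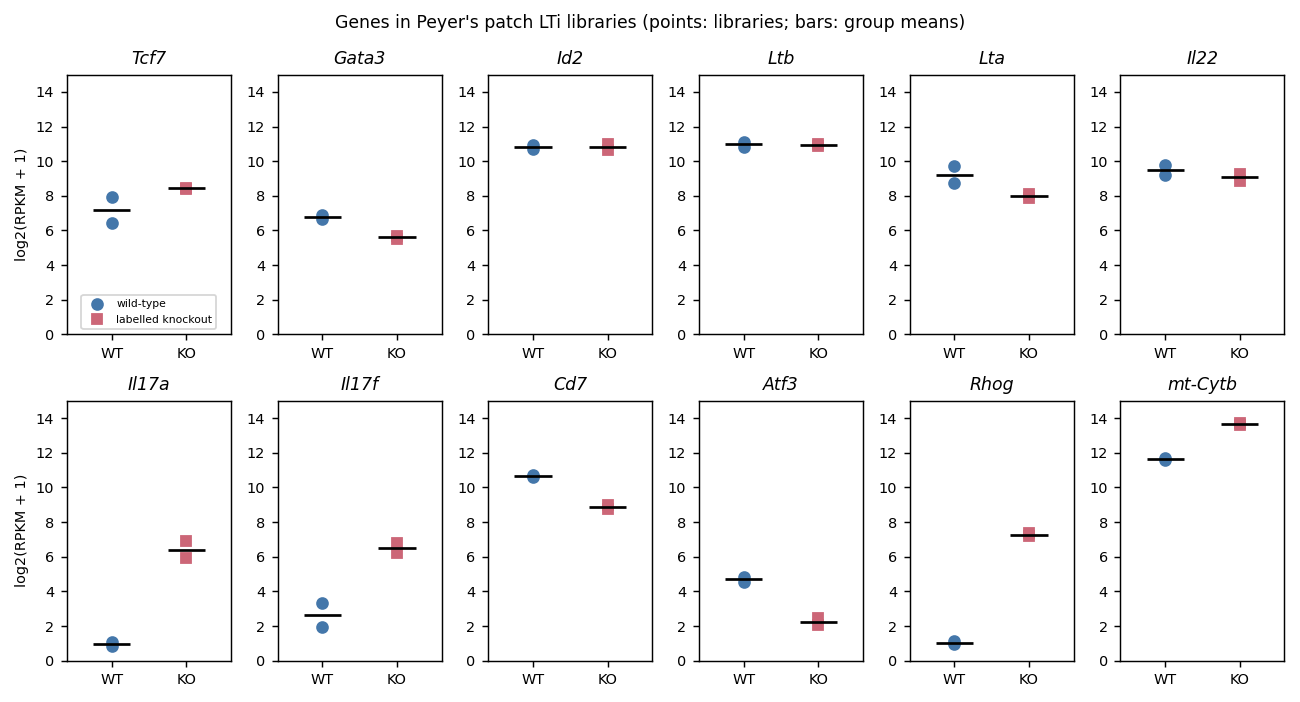
Level of 12 genes in the 4 Peyer's patch libraries, as log2(RPKM + 1) on the vertical axis, with circles for wild-type libraries, squares for libraries labelled knockout and bars for the means of 2 libraries. Il17a and Il17f lie far higher in the libraries labelled knockout and Cd7 and Atf3 lower, while Id2, Ltb and Il22 overlap between the groups.

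Across all 8210 genes, 143 passed an adjusted p of 0.05, which is 1.74% of the genes tested. Of these, 102 (1.24%) were higher in the libraries labelled knockout and 41 (0.499%) were lower. After scaling by the median of ratios the split was 76 higher and 68 lower, since that scaling moved the median log2 fold change of all genes from 0.14 to -0.34. The way a gene entered matters to these counts. Only 34 of the calls, 0.47% of 7236, were among genes at 1 RPKM or more in a library of each group: 13 mitochondrially encoded genes, 12 immunoglobulin genes and 9 others. A further 79 calls were genes kept only because both libraries labelled knockout reached 1 RPKM, and 30 only because both wild-type libraries did. Genes kept that way had to differ, so those 2 counts support nothing, and they stand beside the larger number of genes measured in the libraries labelled knockout given above. Of the genes kept, 3814 were at 1 RPKM or more in all 4 libraries. Of the 143 calls, 76 were of genes under 1 RPKM in all 4 lamina propria libraries. Values near 0 there lower the pooled spread and can make the p-values of those genes too small. With only the 4 Peyer's patch libraries fitted, 17 genes passed, and the 8 named ones among the 9 others had adjusted p-values from 0.159 for Cd7 to 0.445 for Atf3. With a filter of 1 RPKM in 2 of all 8 libraries, 38 genes passed. At the edge of the rule, the second-highest value of Mid1 was 1.003 RPKM, and it was kept, whereas that of Brms1l was 0.998 RPKM, and it was not. In bulk libraries such as these, fewer cells of a type and less RNA per cell cannot be told apart.

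**Figure D2:**
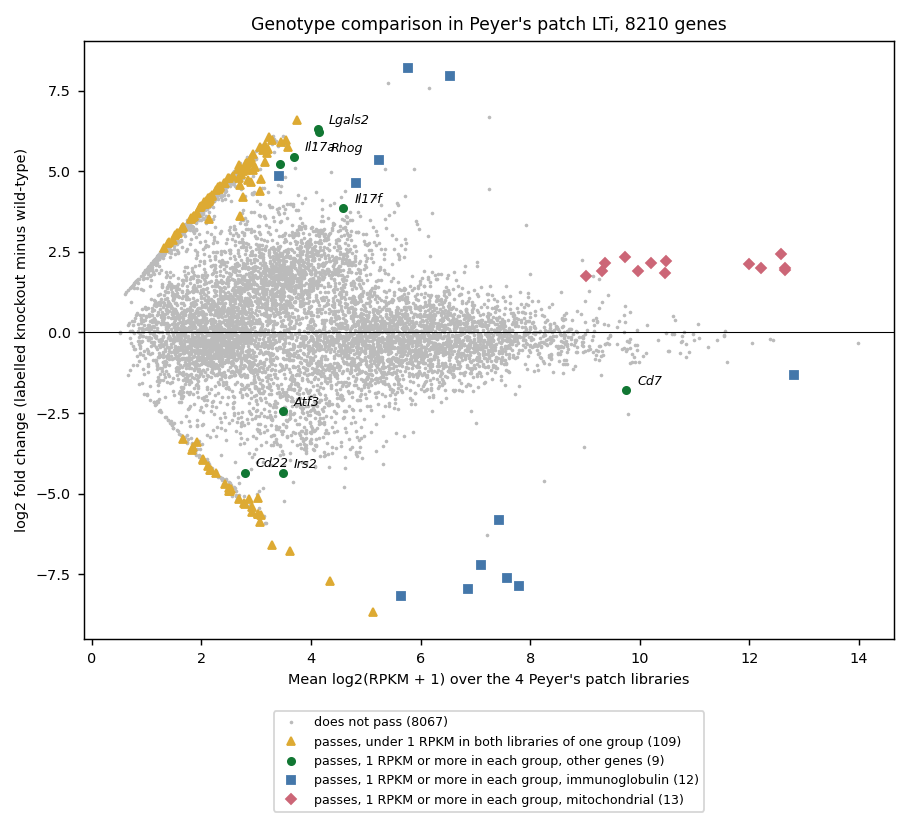
Log2 fold change (libraries labelled knockout minus wild-type) against the mean log2(RPKM + 1) over the 4 Peyer's patch libraries, with 1 point per gene for 8210 genes. Triangles mark the 109 passing genes under 1 RPKM in both libraries of 1 group, which lie on the outer edges. Circles, squares and diamonds mark the 34 passing genes at 1 RPKM or more in a library of each group.

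Of the 9 other genes at 1 RPKM or more in a library of each group, 5 were higher and 4 were lower. Il17f, Cd7 and Atf3 were at 1 RPKM or more in all 4 libraries. Rhog, Lgals2, Il17a, BC064078, Irs2 and Cd22 were under 1 RPKM in 1 library of the lower group. The higher group alone would have kept these genes, so their calls stand close to those of genes kept only through 1 group. Rhog, a small GTPase that acts upstream of Rac on the actin cytoskeleton, was at 0.933 and 1.19 RPKM in the wild-type libraries and at 144 and 163 in those labelled knockout (log2 fold change 6.22 ± 0.54, adjusted p = 0.00553). Its call held without each of the 8 libraries in turn. Lgals2, which encodes galectin-2, a lectin that binds beta-galactosides, was at 0.867 and 1.06 RPKM against 144 and 166 (6.31 ± 0.70, adjusted p = 0.0166). Its call was lost without either library labelled knockout (adjusted p up to 0.073) or without the second wild-type lamina propria library. In the lamina propria both genes were well expressed in both genotypes, with Rhog at 137 and 209 against 171 and 356 RPKM and Lgals2 at 79.5 and 226 against 95.2 and 231, so the wild-type Peyer's patch libraries are the pair that stands low. The interaction did not pass for Rhog (-5.68 ± 0.76, adjusted p = 0.105) or for Lgals2 (-6.16 ± 0.99, adjusted p = 0.119). The remaining higher gene is the predicted gene BC064078, at 1.84 and 0.108 against 77.5 and 55.2 RPKM.

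Cd7, an immunoglobulin superfamily receptor of T cells, NK cells and innate lymphoid cells, fell from 1688 and 1526 RPKM to 507 and 426. It was among the most abundant receptor transcripts in the wild-type libraries, and both libraries labelled knockout lay well under both of these. The log2 fold change was -1.79 ± 0.23 (adjusted p = 0.026). The call passed without either lamina propria library labelled knockout and was lost without each of the 6 others, with an adjusted p of up to 0.098. Cd7 in the lamina propria was at 252 and 238 RPKM in the wild-type libraries and at 116 and 126 in those labelled knockout (-1.01 ± 0.23, adjusted p = 0.697), and the interaction was 0.77 ± 0.32 (adjusted p = 0.517).

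Atf3, a stress-induced transcription factor of the ATF/CREB family, fell from 22.5 and 27.9 RPKM to 3.2 and 4.45 (log2 fold change -2.45 ± 0.41, adjusted p = 0.0376). Irs2, an adaptor of the insulin and IL-4 receptors, fell from 58.1 and 42.6 RPKM to 0.567 and 2.89 (-4.36 ± 0.71, adjusted p = 0.0352). Cd22, an inhibitory co-receptor of B cells, fell from 29.7 and 30.9 RPKM to 0.042 and 1.26 (-4.35 ± 0.77, adjusted p = 0.0469). For each of these 3 genes the groups were clearly apart, and for each the call was lost without any 1 of the 8 libraries, with the adjusted p reaching 0.117 for Atf3, 0.111 for Irs2 and 0.19 for Cd22. Levels in the lamina propria differed between the 3 genes: the mean of Atf3 was 954 RPKM for wild-type against 567, that of Irs2 125 against 148, and Cd22 was at most 0.0784 RPKM in the 4 libraries there.

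The transcription factors that define LTi cells did not pass. Of 29 listed, 23 were kept and 0 passed (limma), with a median log2 fold change of 0.45 against 0.14 over all genes. At an unadjusted p of 0.05, 1242 of the 8210 genes passed. Id2, an inhibitor of E proteins that all innate lymphoid cells need, was at 1918 and 1691 against 1603 and 2024 RPKM, with overlapping groups. Gata3, which innate lymphoid cells need for their development, was at 99 and 119 against 51.2 and 44.7 RPKM (-1.17 ± 0.54, adjusted p = 0.392). Its groups did not overlap, as was the case for 16.7% of all genes in that direction and 21.9% in the other. Tox, a DNA-binding factor needed for innate lymphoid cells, was at 32.3 and 9.13 against 74 and 106 RPKM (adjusted p = 0.202). Rora was at 158 and 345 against 204 and 278 RPKM, and Ahr, the receptor for aromatic ligands of diet and microbes, at 45.7 and 78.3 against 58.6 and 40.2, each with overlap. Some factors were split within a group: Tox2 was at 215 and 1.01 RPKM in the 2 wild-type libraries and at 176 and 204 in those labelled knockout. Tox2 was named after its values were seen.

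Of 34 cytokine receptors and surface markers listed, 27 were kept, and Cd7 was the only 1 that passed (1.74% over all genes). Il7r was at 454 and 301 against 386 and 251 RPKM, and Il23r, the receptor chain for IL-23, at 161 and 91.4 against 111 and 151. Ccr6 was at 597 and 320 against 334 and 398 RPKM. The groups overlapped for each of these 3 receptors. Kit, the receptor for stem cell factor, was at 161 and 212 against 153 and 99.9 RPKM (adjusted p = 0.687). Il1r1, the IL-1 receptor, was at 52 and 92.9 against 194 and 131 RPKM (1.18 ± 0.63, adjusted p = 0.474), and Tnfrsf25 (DR3), the receptor for TL1A, at 159 and 252 against 329 and 482 (0.99 ± 0.38, adjusted p = 0.278). Il2rb, a shared chain of the IL-2 and IL-15 receptors, was at 350.5 and 383 against 543 and 635 RPKM (0.68 ± 0.26, adjusted p = 0.272). Ifngr1, a chain of the interferon gamma receptor, was at 455 and 682 against 293 and 276 RPKM (-0.97 ± 0.25, adjusted p = 0.137). The groups of the 5 receptors from Kit to Ifngr1 did not overlap, and none of the 5 passed. Among the 27 genes kept, 6 were higher and 8 lower without overlap, against 21.9% and 16.7% of all genes.

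**Figure D3:**
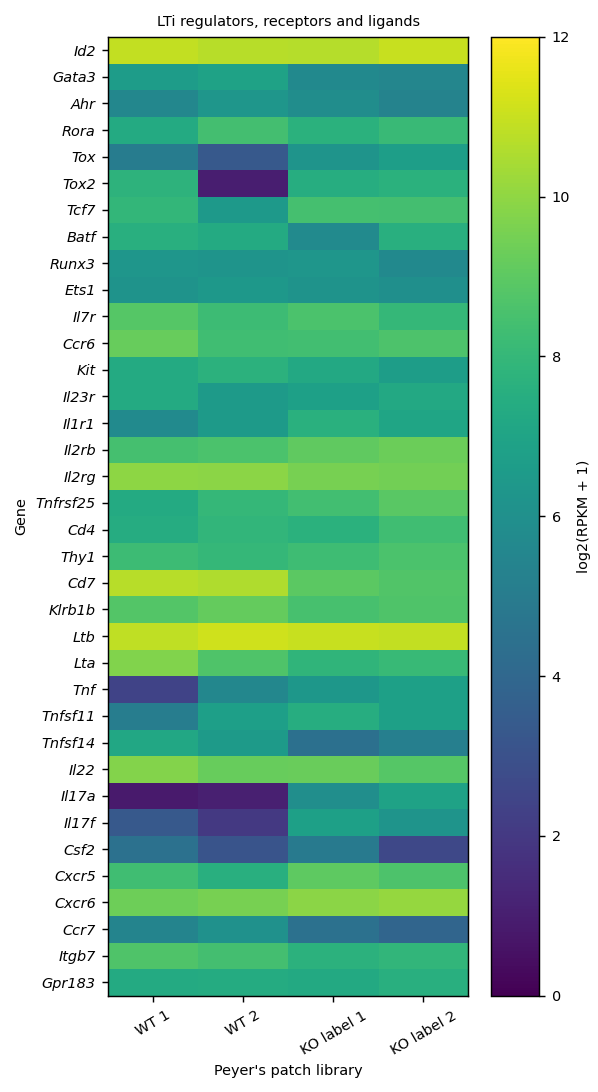
Level of LTi regulators, receptors, ligands and homing receptors in the 4 Peyer's patch libraries (columns), coloured by log2(RPKM + 1). Id2 and Ltb are bright in all 4 columns, Il17a and Il17f are dark in the wild-type columns, and Cd7 is dimmer in the columns labelled knockout.

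The ligands by which LTi cells start lymphoid organs showed no passing member among the 7 kept of 15 TNF superfamily ligands (median log2 fold change -0.04, or 0.09 when scaled to all RPKM outside immunoglobulin and mitochondrial genes). Ltb, the membrane-bound chain of lymphotoxin, was at 1839 and 2248 RPKM in the wild-type libraries and at 2063 and 1890 in those labelled knockout, with full overlap. Lta, the chain that pairs with it, was at 843 and 419 against 231 and 269 RPKM. The 2 wild-type libraries differed from each other by more than the lower of them differed from the libraries labelled knockout (-1.25 ± 1.04, adjusted p = 0.713). Tnfsf11 (RANKL) was at 32.9 and 108 against 175 and 111 RPKM, and Tnf at 4.29 and 46.4 against 80.9 and 111 (2.59 ± 1.08, adjusted p = 0.321). Tnfsf14 (LIGHT) was at 148 and 93.1 against 20.5 and 34.9 RPKM (-2.09 ± 1.64, adjusted p = 0.687).

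None of the 18 homing receptors and integrins kept of 24 passed, and 12 of them had negative estimates (median -0.43). Ccr7, which guides cells to lymph nodes, was at 42 and 67.1 RPKM in the wild-type libraries and at 21.3 and 14.3 in those labelled knockout (-1.55 ± 0.50, adjusted p = 0.199). Itgb7, the beta chain of the gut homing integrin, was at 420 and 335 against 209 and 235 RPKM (-0.76 ± 0.30, adjusted p = 0.29), and its partner Itga4 at 11.5 and 26.2 against 10.4 and 5.79. Cxcr5, the receptor for CXCL13 that directs LTi cells to the sites of lymphoid organs, was at 324 and 192 against 517 and 404 RPKM (0.87 ± 0.36, adjusted p = 0.314). Cxcr6 was at 645 and 746 against 958 and 1083 RPKM (0.55 ± 0.34, adjusted p = 0.559, and -0.03 after scaling by the median of ratios).

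In the Wnt and TCF/LEF pathway, 18 of 40 listed genes were kept and 0 passed (adjusted p at least 0.0931), with a median log2 fold change of 0.90, or 0.41 after scaling by the median of ratios. Over all genes the median was 0.14, or -0.34 by that scaling. Lef1, the close relative of Tcf7, was split within both groups, at 32.6 and 0.146 RPKM in the wild-type libraries and at 0.137 and 62 in those labelled knockout. Ctnnb1, which encodes beta-catenin, was at 0.241 and 11 against 25.5 and 13.1 RPKM. Myc, a known target of the pathway, was at 0.054 and 0.028 against 19.9 and 14.5 RPKM (4.11 ± 0.90, adjusted p = 0.0931). Axin1, a scaffold of the complex that destroys beta-catenin, was at 0.054 and 0.066 against 7.82 and 13.4 RPKM, and Pygo2, a co-activator in the beta-catenin complex, at 0.062 and 0.085 against 9.62 and 32, neither of which passed (adjusted p = 0.319 and 0.174). Myc, Axin1 and Pygo2 were kept only through the libraries labelled knockout. They had to lie higher there, which raises the median of the list, so nothing is read from it. Of the 18, 15 were at 1 RPKM or more in a library of each group.

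Mitochondrially encoded transcripts were higher in the libraries labelled knockout. Of the 15 genes, 13 passed, and all 15 lay higher in both libraries labelled knockout than in both wild-type libraries. Over all genes 1.24% were called higher and 21.9% lay higher without overlap. The 15 genes moved together with the share of RPKM given below, so their calls are not independent of each other. The median log2 fold change was 2.0 (1.42 after scaling by the median of ratios and 2.13 when scaled to all RPKM outside immunoglobulin and mitochondrial genes). mt-Cytb, of complex III, was at 3112 and 3365 RPKM against 12481 and 13350 (2.0 ± 0.12, adjusted p = 0.00243). mt-Cox3, of complex IV, was at 632 and 699 against 3112 and 3026 RPKM (2.20 ± 0.16, adjusted p = 0.00301). mt-Nd1, of complex I, was at 2329 and 2434 against 9121 and 9805 RPKM, and mt-Atp8, of the ATP synthase, at 3650 and 2952 against 12055 and 13246. These 4 calls held without each of the 8 libraries in turn. mt-Nd3 (adjusted p = 0.058) and mt-Nd6 (adjusted p = 0.074) did not pass. As a share of all RPKM, the 15 genes made up 3.06% and 3.28% of the wild-type libraries and 13.4% and 13.6% of those labelled knockout. The lamina propria shares were 3.37% and 3.25% against 5.06% and 3.67%.

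**Figure D4:**
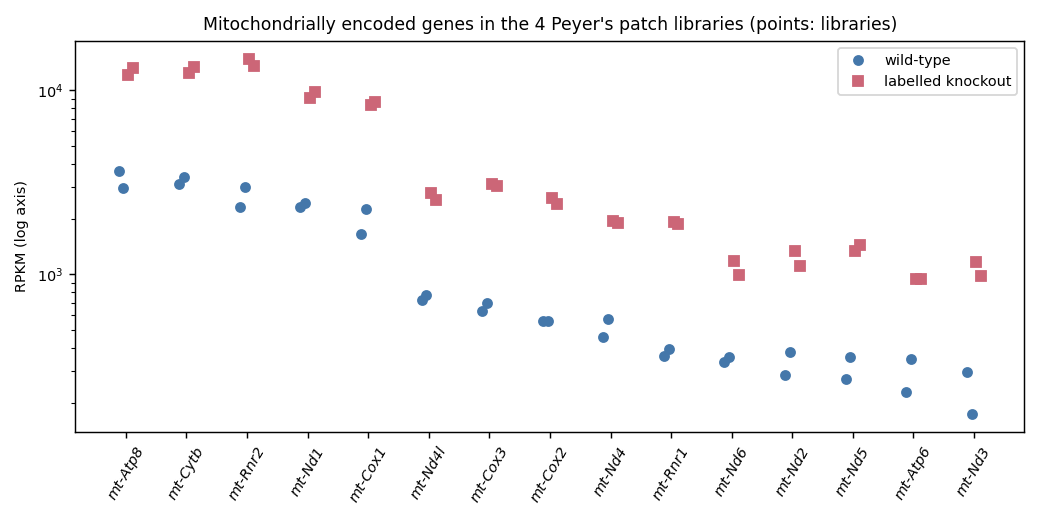
RPKM of the 15 mitochondrially encoded genes on a log axis, with 1 point per Peyer's patch library (circles wild-type, squares labelled knockout). For every gene both squares lie above both circles.

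Among the nuclear-encoded partners of these genes no member passed. Of 91 nuclear-encoded respiratory chain genes kept, 0 passed (adjusted p at least 0.0821), with 14 higher and 24 lower without overlap (21.9% and 16.7% over all genes) and a median of -0.12, which turned to 0.01 when scaled to all RPKM outside immunoglobulin and mitochondrial genes. Cox8a, of complex IV, was at 1255 and 1227 against 763 and 707 RPKM (-0.76 ± 0.20, adjusted p = 0.131), and Atp5b, the catalytic subunit of the ATP synthase, at 204 and 293 against 535 and 642 (1.26 ± 0.28, adjusted p = 0.094). None of the 61 cytosolic ribosomal protein genes kept passed either. Their median was -0.38 (-0.95 after scaling by the median of ratios), with 27 lower and 7 higher without overlap, where 16.7% and 21.9% of all genes were. Rplp0 was at 631 and 599 against 409 and 399 RPKM (-0.60 ± 0.21, adjusted p = 0.225), and Rpl13 at 395 and 450 against 239 and 199.6 (-0.95 ± 0.25, adjusted p = 0.142). None of the 37 proteasome subunits passed.

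Of 30 AP-1 and immediate early genes kept, 2 passed (1.74% over all genes), with Atf3 lower and Ier5 higher, and the list's median changed sign with the scaling (0.23 as deposited, -0.30 by the median of ratios). Fos was at 1366 and 1244 against 2056 and 1706 RPKM (0.52 ± 0.21, adjusted p = 0.304, and -0.06 after scaling by the median of ratios), and Jun at 2004 and 1876 against 2338 and 2326 (adjusted p = 0.916, and -0.31 by that scaling). Gadd45a, a stress sensor induced by DNA damage, was the only member to pass of 14 DNA damage and Gadd45 genes kept, at 0.608 and 0.331 against 123 and 67 RPKM. Cdkn1a, the cell cycle inhibitor p21, was at 5.44 and 27 against 87 and 99.4 RPKM (2.81 ± 0.63, adjusted p = 0.0938). Mthfd2, an enzyme of mitochondrial one-carbon metabolism, was the only member to pass of 14 integrated stress and one-carbon genes kept, at 54.9 and 40.2 against 0.425 and 0.336 RPKM. Ier5, Gadd45a and Mthfd2 were each under 1 RPKM in both libraries of 1 Peyer's patch group, so they were kept only through the group in which they are high and had to differ, and their calls support nothing about these lists. They were at 18.6 RPKM or more on average in both genotypes of the lamina propria.

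Autophagy genes had 3 of 27 kept members that passed, all of them kept only through the libraries labelled knockout, where they are high. Over all genes 1.74% passed, and of the genes kept in that way 9.9% did, so nothing is read from the count. Becn1, which encodes Beclin 1 of the kinase complex that starts autophagosomes, was at 0.278 and 0.388 RPKM against 73.2 and 53.3. Gabarapl1 and Map1lc3a, members of the ATG8 family that is attached to autophagosome membranes, were at 0.289 and 0.419 against 49.4 and 37.5 RPKM and at 0.532 and 0.63 against 29.1 and 27. The best expressed autophagy receptor, Sqstm1 (p62), named after its values were seen, was at 253 and 318 against 256 and 336 RPKM. In the lamina propria the wild-type libraries averaged 69.6 RPKM for Becn1, 43.3 for Gabarapl1 and 90.9 for Map1lc3a.

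The other lists held few calls or none, where 1.74% of all genes passed. Antioxidant genes had 0 of 19, and Gpx1, a glutathione peroxidase, came nearest at 1198 and 1317 against 609 and 701 RPKM (-0.94 ± 0.20, adjusted p = 0.0852). The lamina propria gave the same gene -1.03 ± 0.20 (adjusted p = 0.697). The NF-kB pathway had 0 of 25, with its inhibitor gene Nfkbia at 869 and 681 against 555 and 343 RPKM (-0.82 ± 0.26, adjusted p = 0.192). Survival and apoptosis genes had 0 of 17, and Bcl2 was at 60.1 and 91.2 against 107 and 86.8 RPKM. Interferon response genes (21 kept), MHC class II and costimulation genes (11), heat shock chaperones (15) and glycolysis genes (18) also had 0 calls. Within MHC class II, H2-Ab1 was at 856 and 487 against 303 and 324 RPKM and its chaperone Cd74 at 1006 and 1596 against 556 and 808 (adjusted p = 0.681 and 0.362). Of 14 cell cycle genes kept, Rrm2, a subunit of ribonucleotide reductase, passed, at 23 and 30.7 against 0.095 and 0.034 RPKM, kept only through the wild-type libraries. Among 18 small GTPases kept, Rras passed beside Rhog, at 0.027 and 0.071 against 19.1 and 27.9 RPKM and kept only through the libraries labelled knockout, and of 6 galectins kept Lgals2 alone passed.

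**Figure D5:**
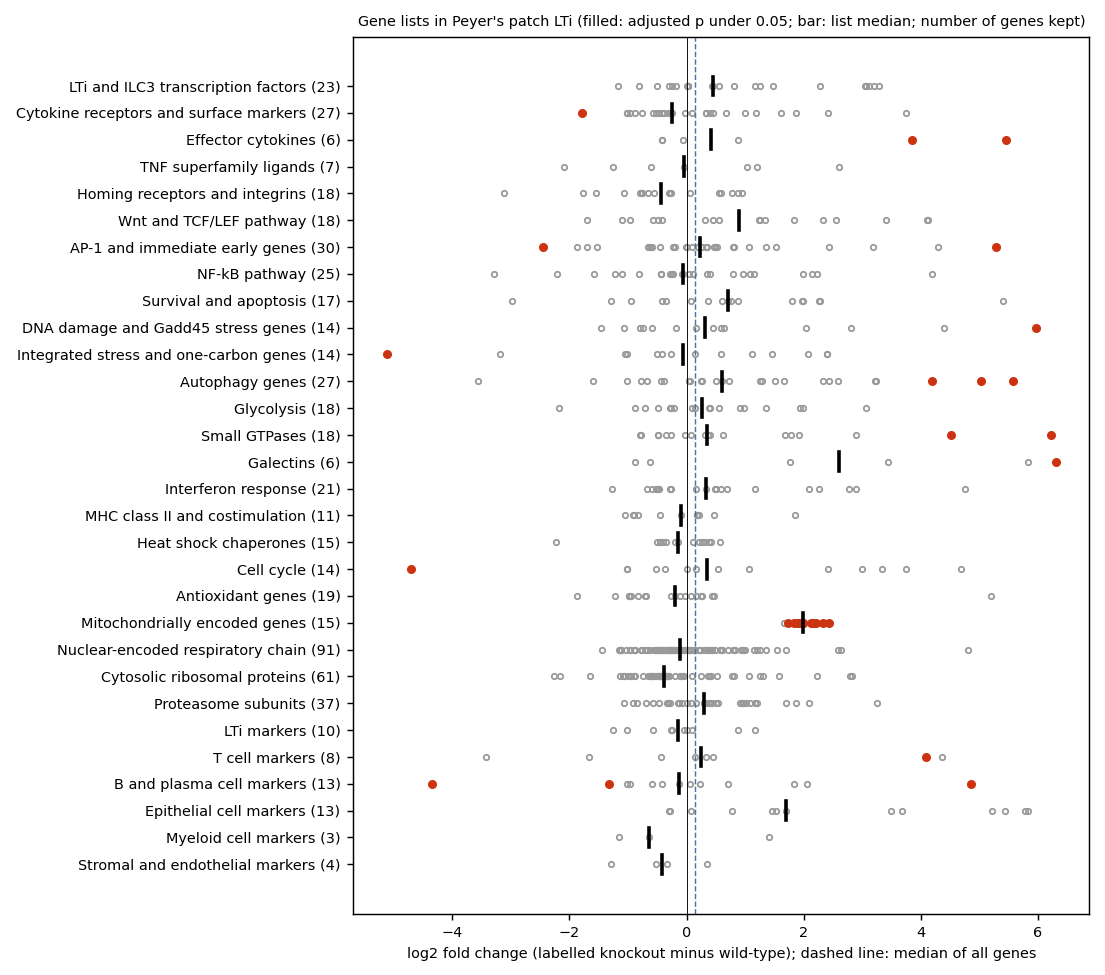
Log2 fold change (libraries labelled knockout minus wild-type) of each member of the gene lists with 3 or more genes kept, with filled points for adjusted p under 0.05 and a bar for the list median. The mitochondrially encoded genes lie together near 2.0, while the other lists spread to both sides of the median of all genes, 0.14, shown as a dashed line.

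Transcripts of other cell types were present in these sorted libraries. Summed B and plasma cell markers were at 12380 and 12250 RPKM in the wild-type libraries and at 5730 and 5281 in those labelled knockout, most of it Igkc, which fell from 11411 and 11308 to 4748 and 4368 (-1.32 ± 0.20, adjusted p = 0.0303). Of the 13 such markers kept, Igkc and Cd22 passed as lower and Iglc2 as higher, where 1.74% of all genes tested passed. Cd79b, a chain of the B cell receptor, was at 59.4 and 49.3 against 266 and 197 RPKM (2.06 ± 0.43, adjusted p = 0.082). Iglc2 was at 0.405 and 1.77 against 72.1 and 44.2 RPKM (4.86 ± 0.62, adjusted p = 0.026). Immunoglobulin variable and joining segments passed in both directions, each with a high level in 1 group. Ighv1-26 was at 1495 and 1889 RPKM against 9.24 and 11.6, Igkv12-44 at 2936 and 2473 against 11.7 and 13.7, Ighv9-2 at 1560 and 2200 against 5.67 and 7.22, and Igkv4-74 at 839 and 869 against 1.88 and 2.01. In the other direction, Ighv9-3 was at 4.68 and 5.07 against 1331 and 1603, Ighv1-82 at 1.83 and 2.6 against 947 and 932, Igkj4 at 4.05 and 5.92 against 214 and 264, and Iglj2 at 0.675 and 0.592 against 123 and 61.5. Iglj2 was kept only through the libraries labelled knockout and had to differ, so its call supports nothing. Variable segments share sequence, so reads may be split between near-identical copies and their single values are uncertain.

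T cell markers summed to 657 and 812 RPKM against 459 and 601, and 1 of 8 kept passed (1.74% over all genes). This was Cd8b1, at 0.018 and 0.08 against 11.8 and 23.9 RPKM, kept only through the libraries labelled knockout, where it had to differ. Cd8a stayed at or under 0.0166 RPKM in all 4 libraries. Without overlap, Trbc1 was lower at 130 and 158 against 32.9 and 60.4 RPKM, as was Trbc2 at 451 and 497 against 298 and 410. Cd5, kept only through the wild-type libraries, was lower at 43.2 and 2.08 against 0.0876 and 0.0722, whereas Cd3e was higher at 0.179 and 3.82 against 40.6 and 56.3. The other 3 kept were split within both groups, with Trac at 31.8 and 0.53 against 0.36 and 44, Cd3g at 0.326 and 111 against 58.9 and 3.6 and Cd3d at 0.0772 and 31.6 against 15.8 and 2.34. Epithelial markers summed to 382 and 194 RPKM in the wild-type libraries against 817 and 866. Of the 13 kept none passed, the median was 1.69, and 7 were higher without overlap, where 21.9% of all genes were. Only 9 of the 13 were at 1 RPKM or more in a library of each group. The others, among them Lgals4, Cldn7 and Reg1, were kept only through the libraries labelled knockout. They had to lie apart, which adds to the 7 and raises the median, so nothing is read from either. Lgals4, an intestinal galectin, was at 0.463 and 0.594 against 121 and 60.3 RPKM (adjusted p = 0.0966), and Tff3, the goblet cell trefoil factor, at 2.58 and 1.47 against 37.4 and 36.4 (adjusted p = 0.135), while Epcam was at 52.4 and 0.17 against 0.36 and 29.4. Lgals2 is also known from gut epithelium, and Gip, below, is a hormone of enteroendocrine cells. Cd8a and Epcam are given as defining markers, chosen with their values known. The part of B, T and epithelial cell RNA in the calls was not tested.

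The 68 named genes outside the immunoglobulin genes that passed and were kept only through the libraries labelled knockout had, with 5 predicted ones, mean levels there from 5.19 to 131 RPKM (median 25.7), and no wild-type library of theirs exceeded 0.872 RPKM. Of lamina propria libraries, all 4 were under 1 RPKM for 47 of the 73 and all 4 at 1 RPKM or more for 22. Secreted products among them were Xcl1, the chemokine lymphotactin, at 0.256 and 0.224 against 68 and 85.6 RPKM, Gip, at 0.277 and 0.451 against 148 and 114, and the matrix protease Mmp9, at 0.016 and 0.05 against 16 and 19.2. Orai1, the pore of the store-operated calcium channel, was at 0.74 and 0.541 against 32.5 and 57.2 RPKM, and Slc8b1, Pcp4 and Phkg2 also act in calcium handling or are regulated by it. In the DNA and chromatin group were Rad51b and Pms2 of DNA repair, Hmces, which shields abasic sites, Gins2 of the replication helicase, Casp2, Wdr5, Wdr5b, Mafg, and the zinc finger genes Zfp526, Zfp467 and Zfp60. Hmces was at 0.856 and 0.799 against 27 and 51.5 RPKM and averaged 209 RPKM in wild-type lamina propria.

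Genes of metabolism in that set were Sirt5, Ivd, Khk, Gstk1, Aldh3b1, Akr7a5, Acot9, Ptpmt1, Pcbd1, Nudt8, Fdxacb1, Txndc12, Azin1, Hebp2 and Ociad2. Azin1, which stabilises ornithine decarboxylase in polyamine synthesis, was at 0.872 and 0.851 against 21.4 and 22.5 RPKM and averaged 191 RPKM in wild-type lamina propria. RNA modification and elongation were represented by Trmt11, Trmt10b, Yrdc, Mrm3, Bcdin3d and Nelfcd, and signalling and trafficking by Rassf7, Dusp22, Rabggta, Rab11fip3, Unc45a, Nmi, Dagla, Sorbs3, Mpzl1, Nlk, Vmp1, Mtmr14 and Slc66a1. Mpzl1, a cell surface glycoprotein, was at 0.348 and 0.487 against 97.1 and 73 RPKM. The rest were Ano8, Rnf208, Kctd21, Scarf2, Msl3l2, Sac3d1, Svbp, the B cell gene Fcrla, and Mir140, whose reads cannot be told apart from those of the gene it lies in.

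Kept only through the wild-type libraries were 22 named genes and 4 predicted ones outside the immunoglobulin genes, with mean levels there from 9.02 to 131 RPKM (median 31.9) and at most 0.425 RPKM in a library labelled knockout. All 4 lamina propria libraries were under 1 RPKM for 20 of these 26. Prg2, which encodes eosinophil major basic protein, was at 160 and 103 RPKM against 0.154 and 0.178. Fpgs, which retains folates in the cell, was at 44.8 and 72.3 against 0.194 and 0.143. Fut4, a fucosyltransferase, was at 52.7 and 26.9 against 0.071 and 0.075 RPKM. Cell division genes were Kif20a, a mitotic kinesin, at 13.4 and 26 against 0.033 and 0.032 RPKM, beside Rrm2. Others were Trbv13-3, Ncoa5, Lyrm2, Cfap298, Gmppb, Armcx1, Fv1, Dapk2, Acss1, Zfp28, Zfp846, Tspyl4, Mindy2, Patj and the small nucleolar RNA Snord96a. Snord96a was at 93.3 and 96.5 RPKM and listed at 0 in both libraries labelled knockout, and its reads cannot be told apart from those of its host gene.

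Some genes that averaged at least 20 RPKM over the 4 libraries came close without passing. With the smallest unadjusted p among non-passing genes of at least 20 RPKM on average and without overlap, 12 were higher: Fzr1, Med4, Bcat2, Kptn, Cldn7, Papss1, Plrg1, Eps8l3, Vps26a, Arpc1a, Hnrnpu and Abhd14b. Of these Hnrnpu, an abundant nuclear RNA-binding protein, was the only 1 measured in both groups, at 45.5 and 41.2 against 175 and 138 RPKM (1.82 ± 0.38, adjusted p = 0.0795). The others were kept only through the libraries labelled knockout and had to differ. The 12 lower ones were Snhg15, Coq9, Qtrt1, Cd163l1, Srm, Derl3, Gpx1, Rps15a-ps4, Gnptg, Cnn3, Pim1 and Wdr45. Among them Coq9, Cd163l1, Srm, Derl3 and Cnn3 were kept only through the wild-type libraries and had to differ. Snhg15, a non-coding host of a small nucleolar RNA, was at 61.4 and 31 against 3.98 and 3.23 RPKM (-3.28 ± 0.60, adjusted p = 0.0508). Pim1, a kinase induced by cytokines through STAT factors, was at 41.3 and 46.2 against 5.87 and 0.664 RPKM (-3.72 ± 0.83, adjusted p = 0.0934). Cd163l1, a scavenger receptor, was at 84.6 and 13.7 against 0.112 and 0.058 RPKM (adjusted p = 0.0593).

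Whether the genotype difference in Peyer's patches differed from that in the lamina propria was tested as an interaction over the same 8210 genes, and 2 genes passed (0.0244%), both of them immunoglobulin segments, Ighv1-26 and Igkj4, against 780 at an unadjusted p of 0.05. No gene outside the immunoglobulin genes passed, so none of the LTi genes above is shown to differ between the tissues. For Tcf7 the interaction was -1.33 ± 0.67 (adjusted p = 0.632, and -0.54 by the median of ratios), for Atf3 1.70 ± 0.58 (adjusted p = 0.377) and for Irs2 4.53 ± 1.0 (adjusted p = 0.168). The median SE of a log2 fold change in Peyer's patches was 1.20, so most genes could pass only with large differences.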

How the data were processed

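RNA of sorted LTi cells was measured in 8 libraries, 2 for each of 4 groups taken from the labels. Per the labels' protocols, the RNA came from a miRNeasy Micro kit and Smart-seq2, which amplifies cDNA by PCR, gave the libraries. Per the submitters' processing notes, featureCounts (Subread) and the mm10 build were used. Not given in the sources used here are versions, aligner, annotation and strand. The deposited values per gene and library were read as log2(RPKM + 1), with 0.0001 read as 0. Neither the log base nor the added 1 is stated. Taken as log2, the summed RPKM times exon length came to between 1344443 and 1511507 per library, and as a natural logarithm to at least 16699472. No counts are given, so no count test was run and no counting interval is printed. Depth estimated from low values was 24 to 32.5 M reads for the Peyer's patch libraries, with quartiles as wide as 11.9 to 42.8 M.

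Symbols and positions came from RefSeq on GRCm38.p6, the assembly of mm10, through Entrez identifiers, of which 25275 of 27179 matched. A gene was kept if 2 or more of the 4 Peyer's patch libraries reached 1 RPKM. On log2(RPKM + 1), a pseudocount of 1, limma 3.58.1 (R 4.3.3; lmFit, eBayes with trend) estimated 4 group means from all 8 libraries, leaving 4 residual degrees of freedom. Two-sided p-values were adjusted by Benjamini-Hochberg across the kept genes, and under 0.05 counted as passing. The fit was also run on simulated data. Those were not built to hold genes near 0 in 1 group and high in the other, so they do not bear on the calls of such genes. The text names Tcf7, all named passing genes outside immunoglobulin and mitochondrial genes, up to 4 passing genes of each of those classes per direction, the 12 nearest non-passing genes per direction at 20 RPKM or more without overlap, and core members and up to 4 members with the smallest p of each gene list. The members and lists were chosen with earlier results of these data known. The results of some genes are not reported here. Alternatives were other pseudocounts, filters, scalings, sets of samples and genes, no trend, a replicate block and leaving out each library. No two-sided permutation of 2 against 2 libraries can pass 0.05, so none was run.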

Additional observations from a re-analysis of the deposited data

Results flagged for a closer look

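2 genes had a genotype difference that differed between Peyer's patch and lamina propria by the interaction test of limma. Ighv1-26, a heavy chain variable segment, fell in Peyer's patches from 1495 and 1889 RPKM to 9.24 and 11.6, and was at 3014 and 3005 against 868 and 1411 in the lamina propria, an interaction of 5.77 ± 0.42 (adjusted p = 0.0116). Igkj4, a kappa joining segment, rose in Peyer's patches from 4.05 and 5.92 RPKM to 214 and 264, and was at 528 and 517 against 173 and 154 in the lamina propria, an interaction of -7.01 ± 0.53 (adjusted p = 0.0116).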

How the results depend on the processing

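The count of 143 passing genes depended on the processing. It was 38 with the filter of 1 RPKM in 2 of all 8 libraries, 41 with a mean of 1 RPKM over the Peyer's patch libraries, 76 with no filter, 17 with only the Peyer's patch libraries fitted, 48 with the immunoglobulin and mitochondrial classes left untested, and 216 without a trend. Chosen after seeing the data, a filter of 1 RPKM in a library of each group gave 28, and the calls of the fit as reported among those genes numbered 34. Leaving out 1 library gave 15 to 88. With a pseudocount of 0.1, a pseudocount of 5, scaling by the median of ratios and scaling to all RPKM outside these classes it was 164, 113, 144 and 146. The replicate block gave 20 genes for genotype and 1 for the interaction. Deviations of same-numbered libraries correlated between -0.0199 and 0.0155, which shows no pairing by number. It cannot exclude pairing, since libraries of the same group differed widely in many genes. The interaction count of 2 was 4 with a pseudocount of 0.1, with the mean filter, with the scaling outside these classes and with the filter on each group, 12 with a pseudocount of 5, 36 with no filter, 0 with these classes untested and 9 without a trend, and 0 to 7 without 1 library. Of 112 named passing genes, 0 changed direction, 25 passed in at least 10 alternatives of at most 20, and 3 in all. Outside the immunoglobulin genes, 68 of the 112 were kept only through the libraries labelled knockout and 22 only through the wild-type libraries. Their direction could hardly change, so nothing is read from the 0. The 25 include immunoglobulin, mitochondrially encoded and such genes. The 3 are the immunoglobulin segments Ighv1-26, Ighv9-2 and Igkv12-44. Rhog passed in 19, Lgals2 in 16, Cd7 in 11, Il17a and Il17f in 9 each, and Atf3, Irs2 and Cd22 in 4 each. Some estimates that did not pass changed sign. By the median of ratios these were Fos -0.0561, Cxcr6 -0.0251, Hsp90b1 -0.31, Cd4 -0.24, Bcl2 -0.20, Jun -0.31, Pdgfrb -0.21, Il23r -0.48, Rora -0.55 and Id2 -0.58. With the scaling outside these classes they were Ltb 0.087 and Csf2 0.065, and with a pseudocount of 5 Csf2 0.0158. The cause was not tested. Leaving out 1 library turned the sign of these, with ranges over the libraries left out: Sod1 -2.56 to 0.114, H2-DMa -0.92 to 4.62, Lgals1 -1.48 to 5.01, Tgfb1 -0.0321 to 1.8, Il7r -0.554 to 0.0617, Pecam1 -1.32 to 0.292, Mfge8 -3.53 to 0.94, Ccr6 -0.711 to 0.189, Klrb1c -3.34 to 1.58, Pdgfrb -0.00371 to 0.716, Ahr -0.676 to 0.088, Isg15 -2.32 to 1.39, Cd68 -3.52 to 2.24, Lef1 -2.45 to 3.34, Il23r -0.315 to 0.494, Ltb -0.187 to 0.103, Rora -0.536 to 0.584, Csf2 -1.23 to 1.12, Id2 -0.168 to 0.168.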
